A study of Mus musculus with 24 samples.

Results

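The comparison described is the induction of the miR-23b cluster in βTC3 cells, set against the same line without inducer. βTC3 is a mouse insulinoma line, that is, a line of tumour cells related to the insulin-producing beta cell. The miR-23b line carried the plasmid PB-31 with the miR-23b cluster, and doxycycline (DOX) in the medium served as the inducer. The members, chosen by their labels, were 6 of 24 libraries: 3 from cells grown in plain medium over 7 d (no DOX) and 3 from cells whose medium held DOX, 2 µg/ml, over the same time (7 d DOX). The reference groups, of 3 libraries each, were the control line, with PB-31 alone, under the same 2 conditions, and miR-23b cells given DOX for 7 d and kept for another 7 d without it (withdrawn). Cells were plated in triplicate, and p-values therefore measure the spread between these libraries, which may be technical. The labels do not say whether each line was 1 clone or a pool, nor when the conditions were run. Within the miR-23b line DOX cannot be told apart from the cluster it induces, nor from a batch shared by the libraries of 1 condition. The control line's response to DOX was therefore used as the reference.

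MicroRNAs are short RNAs that guide Argonaute proteins to messenger RNAs carrying a match to the seed, the bases at positions 2 to 8 of the microRNA. Binding, mostly in the 3′ untranslated region (UTR), lowers the stability and translation of the target, usually by a modest amount per target. The miR-23b cluster is transcribed as 1 precursor RNA that gives miR-23b, miR-27b and miR-24. The paralogous miR-23a cluster gives near-identical mature forms from another chromosome. In polyA libraries the mature forms are not measured, and reads at the locus come from the precursor transcript.

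The mature forms of the induced locus whose sites are counted further on are shown because their seeds define those sites. The sequences are from RefSeq (GRCm38.p6), 5′ to 3′, with the seed in capitals.
mmu-miR-27b-3p: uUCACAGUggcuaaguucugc
mmu-miR-24-3p: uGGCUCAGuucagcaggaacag
The seeds differ, so the forms fall into separate seed groups. miR-23b-3p is the remaining main product of the cluster, and its sites were not analysed here.

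The locus lies on the plus strand of chromosome 13 (GRCm38), within 2010111I01Rik (ENSMUSG00000021458), its host gene. Levels at the locus are given as CPM, counts scaled to the gene counts of the library. Mir23b (13, 63300484 to 63300557) stood at 0.0635, 0.229 and 0.169 CPM in the 3 libraries without DOX, from 1, 5 and 3 counts. With 7 d DOX it stood at 56.2, 49.9 and 53.5 CPM, from 1201, 1111 and 850 counts. Mir27b (63300712 to 63300784) stood at 0.444, 0.550 and 0.450 CPM without DOX and at 79.6, 90.1 and 86.8 with it. Mir24-1 (63301208 to 63301275) stood at 0.698, 0.550 and 0.675 CPM without DOX and at 113.3, 96.6 and 101.9 with it. All 3 induced libraries thus lay far above all 3 uninduced ones at each precursor, as the labels of these libraries state. Whether these reads come from the plasmid or from the chromosome cannot be told apart. Summed over the 3 withdrawn libraries, the precursors held 2, 6 and 11 counts, and the control libraries with DOX held 1, 3 and 4. The host gene stood at 13.96, 15.7 and 16.8 CPM without DOX and at 18.1, 18.98 and 18.5 with it. Its log2 fold change was 0.19 (SE 0.08, n = 3) in the miR-23b line and 0.25 (SE 0.08) in the control line, and the call in the miR-23b line was lost in DESeq2 and when any of 5 of the 6 libraries was left out. Mir3074-1, which lies on the opposite strand at 63301199 to 63301283, stood at 1.02, 0.596 and 0.619 CPM without DOX and at 0.234, 0.449 and 0.756 with it, groups that overlap. The miR-23a cluster loci Mir23a, Mir27a and Mir24-2 held at most 1 count in any of the 6 libraries.

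The 6 libraries held 15759849 to 22287337 gene counts, and 14866 genes passed a filter on low counts. Beta cell genes marked every library: Ins2, which encodes insulin 2, ranged from 6609 to 7873 CPM, the transcription factor gene Pdx1 from 233 to 336 and the islet peptide gene Iapp from 2079 to 3083. Markers of other cell types were low. The summed level of 10 leukocyte genes, of which 3 were at 0 in each group, was 2.60 to 2.84 CPM without DOX and 3.69 to 5.35 with it. Of 9 fibroblast genes, 4 were at 0 without DOX and 3 with it, and their sum was 2.31 to 2.57 and 3.28 to 4.34 CPM. Sums for 11 exocrine and duct genes were 2.54 to 2.87 and 3.23 to 4.97 CPM (4 and 3 at 0), and for 8 endothelial genes 19.5 to 19.9 and 21.5 to 22.3 (1 and 0 at 0). These sums moved with DOX, and their part in the results was not tested. The control libraries with 7 d DOX showed 20898 to 21066 genes with a count, above every other library of the series, which bears on each difference from the control line.

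Induction went with a broad change of the transcriptome in which metabolic genes were among the most lowered. Ak4, a mitochondrial adenylate kinase, Ldha, the lactate dehydrogenase subunit that makes lactate from pyruvate, and Slc16a3, the lactate exporter MCT4, were lower, at log2 fold changes of -6.79, -3.77 and -2.57 (SE 0.27, 0.14 and 0.12, n = 3). Phlda3, which encodes an inhibitor of AKT and is a p53 target, rose by 3.65 (SE 0.18). In edgeR's quasi-likelihood test at a Benjamini-Hochberg adjusted p below 0.05, 8530 genes (57.4%) were called, 4284 higher (28.8%) and 4246 lower (28.6%). Large changes leaned to the lower side: 553 called genes were lower by over 2-fold and 407 higher, and 104 against 46 passed 4-fold. The median size of the log2 change was 0.227 over all genes, so most calls were of small changes. Scaling to total counts in place of TMM put 61.4% of the calls on the higher side, against 50.2% by TMM, and the deposited TPM table put 5672 of 8464 calls there. On those scales the median gene stood at 0.069 and 0.072, against 0.008 by TMM.

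The control line answered DOX too, with 5624 genes called (37.8%), 2753 higher (18.5%) and 2871 lower (19.3%), and a median size over all genes of 0.142. Genes called lower in both lines numbered 1889, which was 44.5% of those lower in the miR-23b line and 65.8% of those lower in the control line. Genes called higher in both numbered 1497, or 34.9% and 54.4%. The test of the difference between the responses called 5583 genes (37.6%), 2694 higher (18.1%) and 2889 lower (19.4%) in the miR-23b line. The 3 libraries a side did not overlap for 61.4% of all genes in the miR-23b line's response and for 57.6% in the difference, each library with DOX being set against its line's mean without. Of the genes lower in the miR-23b line, 2295 (54.1%) also differed from the control response in that direction, and of the higher ones 2178 (50.8%). Both calls use the same miR-23b libraries, so these shares are not independent support. Across genes the responses of the lines had a Pearson r of 0.435, a description only, since genes are not independent replicates.

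**Figure D1:**
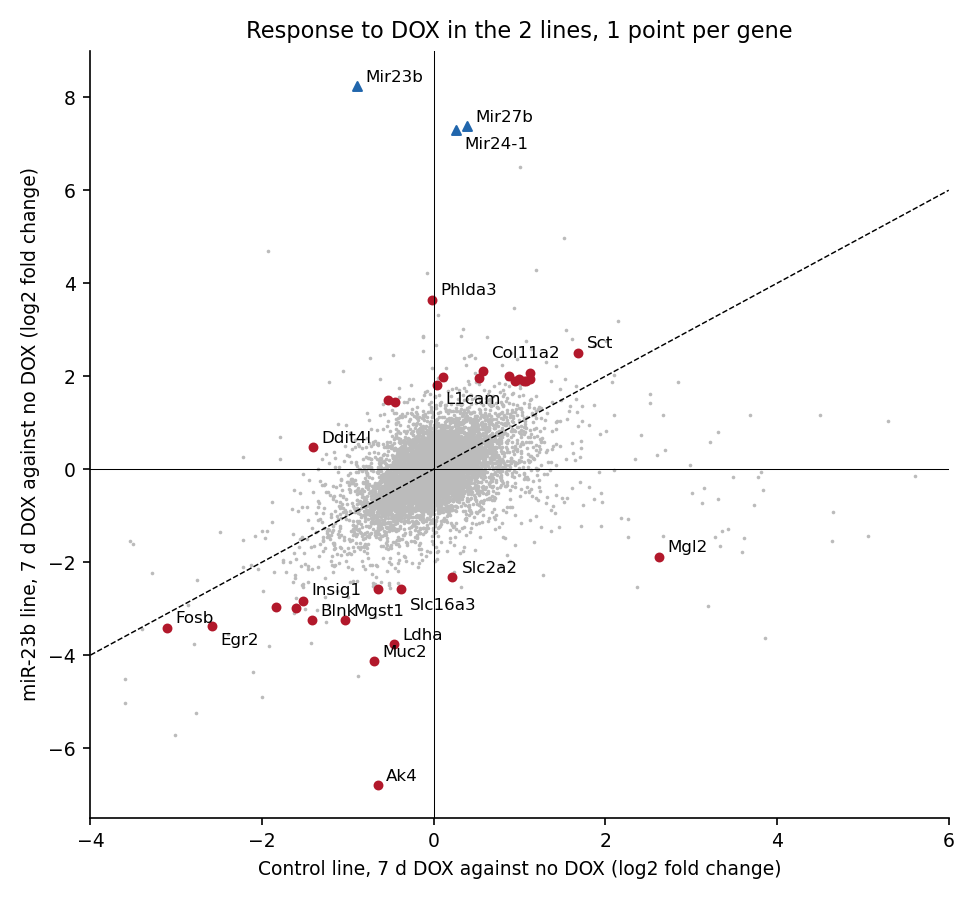
Each point is 1 of 14866 genes, with the log2 fold change of 7 d DOX against no DOX in the control line on the x axis and in the miR-23b line on the y axis. Red points are genes named by size of change, blue triangles are the 3 precursor loci, and the dashed line marks equal responses: Ak4 and Ldha lie far below it at control values of -0.65 and -0.46, while Fosb lies close to it.

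Transcripts of lactate metabolism and glycolysis were mostly lower, among them a gene of glucose entry and one of lactate export. In the miR-23b line without DOX, Ldha stood at 661, 559 and 680 CPM (here and below, CPM of TMM-scaled library sizes). With DOX it stood at 45.7, 46.3 and 47.6 CPM, and after withdrawal at 304, 193 and 200. In the control line it went from 753, 776 and 745 to 410, 604 and 637 CPM. The induced miR-23b libraries lay together and far below every other library, the withdrawn ones lay in between, and 1 control library with DOX lay below the other two. The response differed between the lines by -3.31. Slc16a3 went from 183, 155 and 181 CPM to 27.5, 27.4 and 32.8 and stood at 119, 82.9 and 90.8 after withdrawal, while control cells with DOX held 130, 176 and 179. Slc2a2, the glucose transporter GLUT2 of beta cells and liver, went from 9.76, 8.58 and 9.04 CPM to 1.83, 1.57 and 2.16. It was back at 9.34, 8.56 and 9.73 CPM after withdrawal, and in control cells it stood at 8.44, 7.31 and 7.14 without DOX and 8.46, 8.94 and 9.20 with it. Its log2 fold change of -2.31 (SE 0.13) therefore had no counterpart among the control libraries, where the log2 fold change of 0.21 (SE 0.10) was not called, and the difference of -2.53 was called.

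Of 26 glycolysis and lactate genes, all of which passed the filter, 20 were called lower and 3 higher in the miR-23b line, with a median log2 fold change of -0.99 against 0.01 for all genes. In the control line 16 were lower and 2 higher, with a median of -0.25, and the difference was called lower for 18 and higher for 3. Some other steps are given by their place in the pathway, outside the rule for named genes and after their values were seen. All the following were called lower, with log2 fold changes of -1.54 for the phosphofructokinase Pfkl, -2.09 for the aldolase Aldoa, -2.02 for triose phosphate isomerase Tpi1, -1.61 for phosphoglycerate kinase Pgk1, -1.17 for phosphoglycerate mutase Pgam1, -1.62 for the enolase Eno1 and -0.85 for pyruvate kinase Pkm. These are responses of the miR-23b line alone, set against no control value, and are not read as differences between the lines. Aldoa, as an example, went from 805, 730 and 799 CPM to 184, 180 and 183. The 3 higher members were Bpgm, a mutase of a glycolytic side branch (0.58, SE 0.08), the glucose transporter Slc2a3 (0.52, SE 0.11) and the phosphofructokinase subunit Pfkm (0.15, SE 0.04). Next to this pathway, Pdk1, a kinase that inhibits pyruvate dehydrogenase, went from 131, 110 and 129 CPM to 34.3, 33.6 and 30.8. Its log2 fold change was -1.89 (SE 0.10), against -0.33 in the control line. Several of these genes, Gapdh, Ldha and Aldoa among them, have near-identical copies elsewhere in the genome, and reads placed in more than 1 location were not counted, so their levels are less certain than their errors imply.

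Hypoxia-inducible genes, the set that the HIF transcription factors switch on when oxygen is short, were lower as well. Ak4 stood at 37.2, 34.9 and 39.3 CPM without DOX and at 0.0913, 0.567 and 0.308 with it. It was back at 24.9, 16.5 and 16.7 CPM after withdrawal, and in control cells it went from 41.7, 41.9 and 37.8 to 20.3, 26.4 and 30.5. The induced libraries thus lay at 0.567 CPM or less and all the others of these groups at 16.5 or more, and the difference between the lines was -6.14. Errors of so large a change are too small where 1 group holds few counts. Without miR-23b 7 d DOX replicate 2 the log2 fold change of Ak4 was -7.60 and the difference -6.95, and without replicate 1 they were -6.31 and -5.66. On the log2(TPM + 1) scale the fold change was -4.73. Bnip3, a mitophagy receptor, went from 121, 108 and 116 CPM to 21.8, 20.9 and 20.2, and the transcriptional repressor gene Bhlhe40 from 26.8, 30.7 and 33.2 to 5.07, 5.58 and 5.12. For both, all 3 control libraries with DOX lay above all 3 induced libraries, at 86.9 to 111.2 and 15.7 to 18.2 CPM.

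Of 25 hypoxia-inducible genes tested, 22 were called lower and 2 higher, with a median of -0.51. In the control line 11 were lower and 5 higher (median -0.12), and the difference was called lower for 21 and higher for 2. The list holds several enzymes and transporters whose role is glycolytic or that sit next to that pathway, so the lists are not separate sets of evidence. The 2 higher members were Pfkfb4 (0.42, SE 0.07), which makes an activator of phosphofructokinase, and Mxi1 (0.21, SE 0.05), which encodes an antagonist of MYC. Vegfa, the angiogenic growth factor, fell by 0.27 (SE 0.04). Pfkfb3, a relative of Pfkfb4, was lower in the miR-23b line (-0.39, SE 0.10) and higher in the control line (1.08), and after withdrawal it stood at 29.9, 24.9 and 25.6 CPM against 17.2, 17.7 and 17.1 without DOX. Vegfa and Pfkfb3 were chosen after their values were seen.

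**Figure D2:**
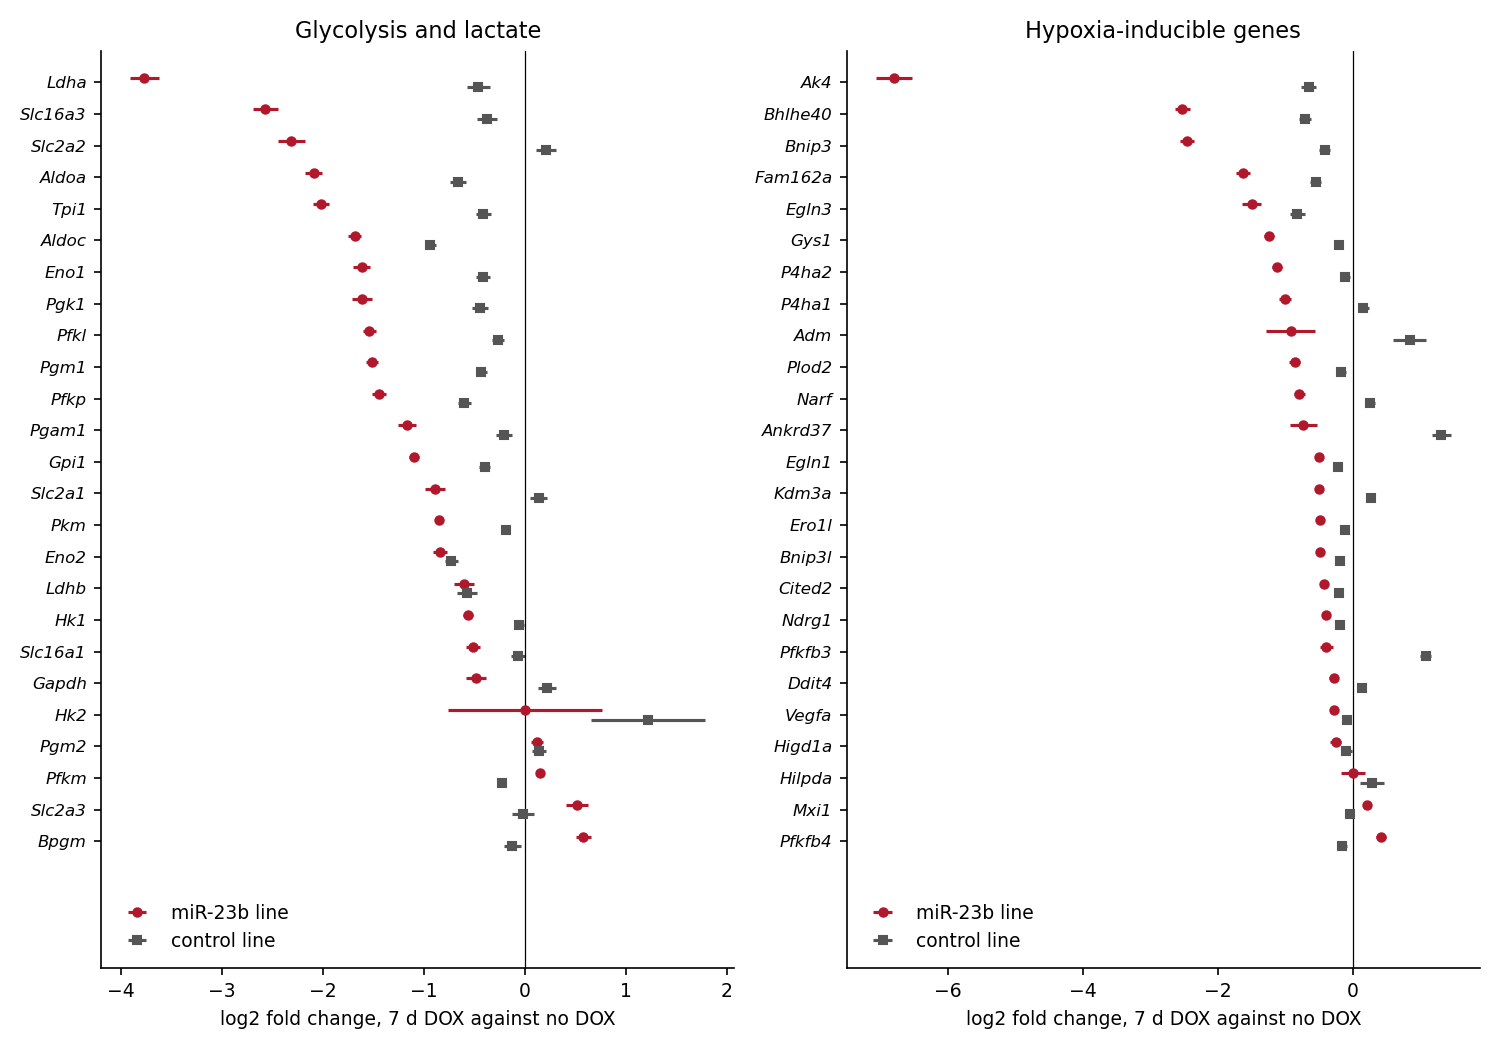
Log2 fold change of 7 d DOX against no DOX (x axis) for 25 of the 26 tested members of the glycolysis and lactate list (left) and the 25 of the hypoxia-inducible list (right), in the miR-23b line (red circles) and the control line (grey squares). Bars are SE from the fit with n = 3 libraries a group; Ldha, Slc16a3 and Slc2a2 lead the left panel at -3.77, -2.57 and -2.31, and Ak4 lies apart in the right panel at -6.79.

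Transcripts of the hypoxia-inducible factors themselves moved little. Hif1a, the oxygen-regulated subunit, stood at 150, 146 and 141 CPM without DOX and at 130.9, 130.6 and 133.3 with it, a log2 fold change of -0.15 (SE 0.04) against -0.12 in the control line. The difference between the lines, -0.03, did not pass. Its partner Arnt was higher (0.11, SE 0.03) and the second partner Arnt2 was called at 0.54 (SE 0.23) with overlapping libraries, a call that DESeq2 did not make and that was lost when any of 4 of the 6 libraries was left out. Epas1, the HIF-2α subunit, had a value of 0.14 (SE 0.17) that did not pass. Among regulators, Vhl, which marks HIF subunits for degradation, fell by 0.38 (SE 0.06). The prolyl hydroxylase gene Egln2 fell by 0.34 (SE 0.04), and Hif1an, which hydroxylates HIF subunits, rose by 0.11 (SE 0.03). Control values of Vhl, Egln2 and Hif1an were 0.07, -0.25 and -0.06. The differences of Vhl (-0.45), Hif1an (0.17) and Arnt (0.21) were called, and those of Egln2 (-0.09), Arnt2 (0.23) and Epas1 (0.55) were not. HIF activity is set largely at the protein level, which was not measured.

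Among the adenylate kinases, which interconvert adenine nucleotides in different compartments, the members described here differed from Ak4 and among themselves. Ak3 of the mitochondrial matrix fell by 0.38 (SE 0.12). Ak1 of the cytosol rose by 0.98 (SE 0.04) and Ak5 by 1.19 (SE 0.08). Ak6, Ak7, Ak8 and Ak9 had values of -0.09, -0.10, -0.38 and -0.69 that did not pass. The responses of Ak1 and Ak5 exceeded those of the control line by 0.71 and 0.31, both called, while that of Ak3 differed by -0.05 and was not.

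**Figure D3:**
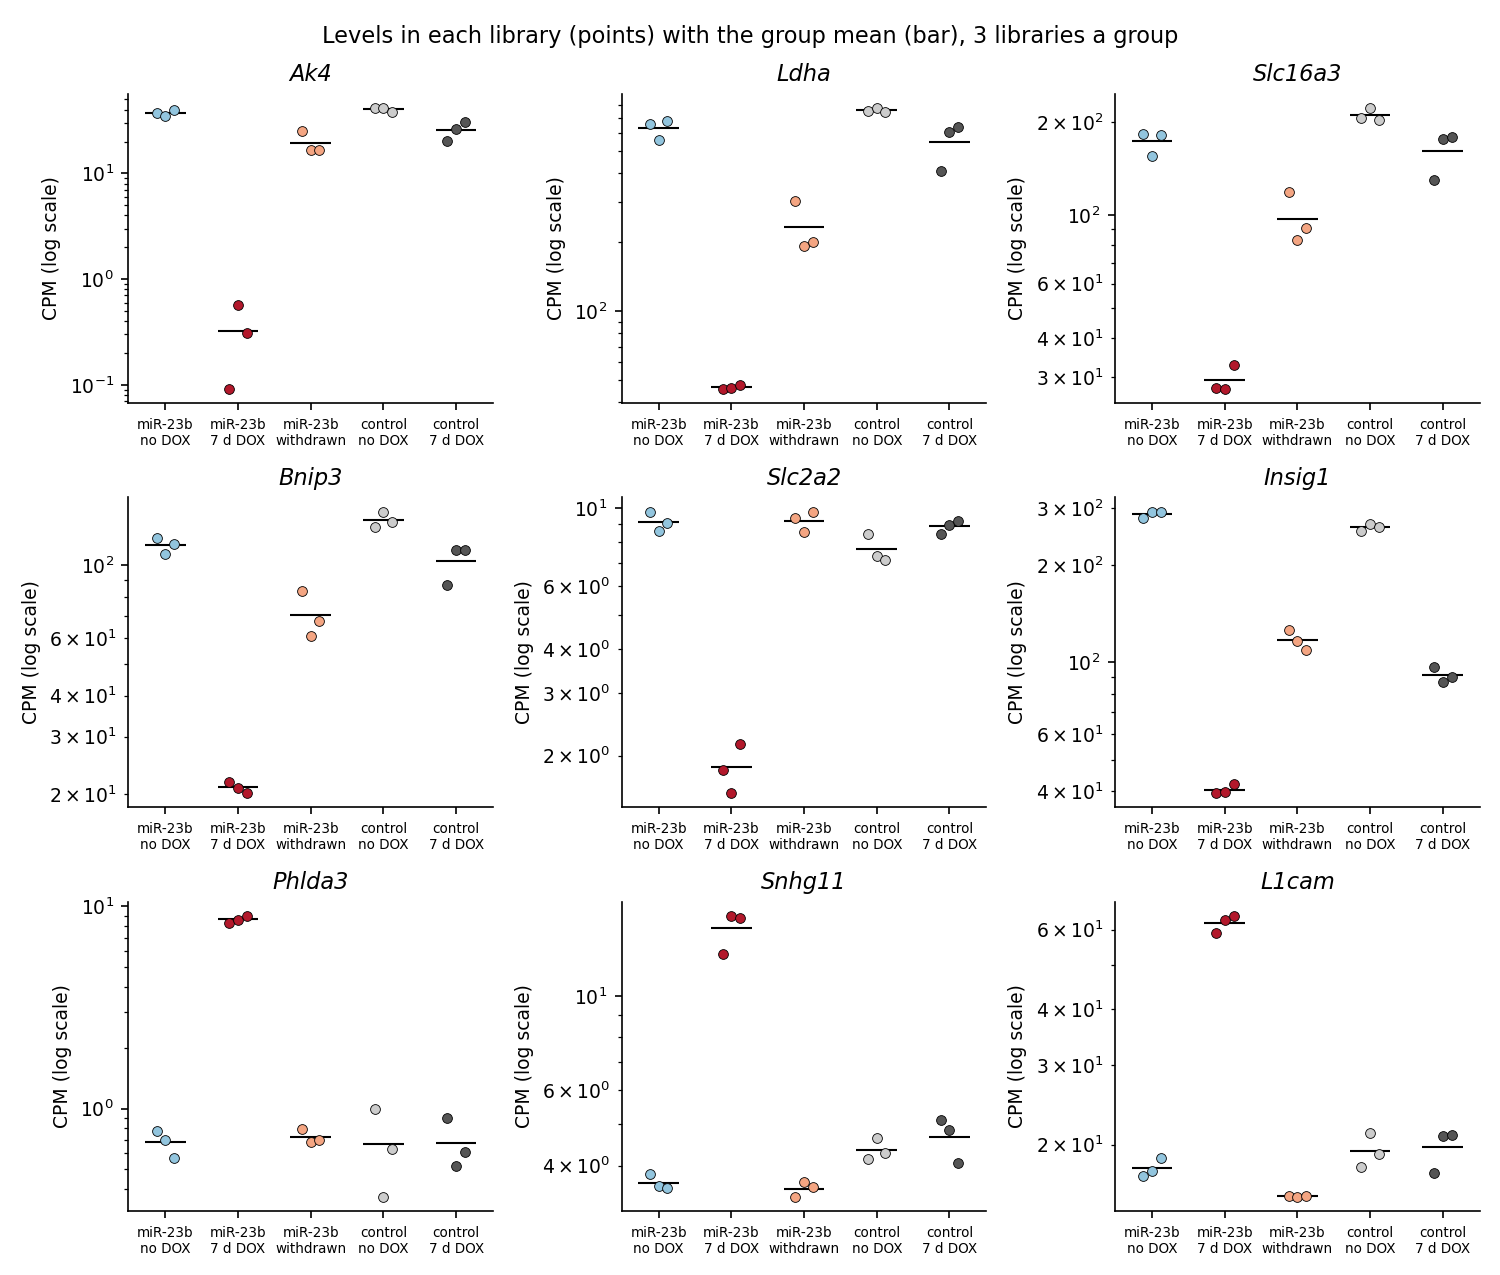
CPM in each library (points, log axis) with the group mean (bar) for 9 genes, over 3 conditions of the miR-23b line and 2 of the control line, 3 libraries a group. Ak4, Ldha, Slc16a3, Bnip3, Slc2a2 and Insig1 are lowest in the induced miR-23b libraries, and Phlda3, Snhg11 and L1cam are highest there; the withdrawn libraries of Slc2a2, Phlda3 and Snhg11 lie near those without DOX.

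Genes of lipid synthesis were lower in both lines, and more of them by a wider margin in the miR-23b line. Insig1, which holds the sterol sensor SCAP in the endoplasmic reticulum, went from 279, 292 and 292 CPM to 39.5, 39.8 and 42.1, a log2 fold change of -2.83 (SE 0.05). In control cells it went from 255, 268 and 262 to 96.9, 87.0 and 89.8 CPM. Scd2, a desaturase that makes monounsaturated fatty acids, went from 2656, 2637 and 2624 CPM to 494, 496 and 475, against 2357, 2376 and 2301 to 1188, 1187 and 1206 in the control line. Of 27 genes of sterol synthesis and uptake, 24 were called lower and 2 higher, with a median of -0.93. In the control line 25 were lower and 0 higher (median -0.61), and the difference was called lower for 20 and higher for 3. Fdps, which makes farnesyl diphosphate, fell by 2.06 (SE 0.08) against -1.19 in the control line, and the 2 higher members were Scap (0.21, SE 0.05) and Insig2 (0.16, SE 0.04). Of 17 genes of fatty acid synthesis, 15 were lower and 0 higher, with a median of -0.58. In the control line 11 were lower and 1 higher (median -0.35), and the difference was called lower for 11 and higher for 0. Scd1 fell by 2.54 (SE 0.05) and the desaturase Fads1 fell by 1.14 (SE 0.03), with differences from the control response of -1.02 and -0.55.

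Beta cell genes were split. Of 39 genes of beta cell identity and insulin secretion, 23 were called lower and 9 higher, with a median of -0.14, and the control line had 9 lower and 15 higher (median 0.04). The difference was called lower for 19 and higher for 8. Besides Slc2a2, the prolactin receptor gene Prlr, through which lactogens act on beta cells, went from 26.7, 26.9 and 29.2 CPM to 8.54, 7.72 and 7.90. It stood at 22.1, 22.9 and 21.9 after withdrawal and at 25.7 to 29.3 CPM in control cells with DOX. Its induced libraries thus lay apart from every other group, and the difference was -1.82. Sytl4, which encodes the granule protein granuphilin, fell by 1.40 (SE 0.03) against -0.27 in the control line. Rgs4, a regulator of G protein signalling, rose by 1.08 (SE 0.11), the granin Chgb by 0.99 (SE 0.04) and the hormone-processing carboxypeptidase Cpe by 0.68 (SE 0.04). Rgs4 and Chgb rose by 0.37 and 0.64 in the control line. The rise of Cpe did not differ from that of the control line (0.07).

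The insulin genes, read here as defining markers, did not respond as in control cells. Ins1 stood at 2033, 1846 and 1944 CPM without DOX and at 1071, 1070 and 1050 with it, and after withdrawal at 2174, 2306 and 2399. In control cells it went from 1929, 1823 and 1867 to 2538, 2560 and 2392, and the difference of -1.28 was called. Ins2 fell by 0.20 (SE 0.03), from 7873, 7773 and 7870 to 7199, 6609 and 6708 CPM, while it was higher by 0.16 in control cells with DOX. After withdrawal Ins2 stood at 10704, 10911 and 10830 CPM, above both other conditions of the line. Pdx1 fell by 0.43 (SE 0.04), against -0.04 in the control line. For Mafa, a transcription factor gene of mature beta cells, the libraries overlapped: 132.1, 128 and 81.2 CPM without DOX against 59.9, 119 and 75.0 with it. Ins1 and Ins2 resemble each other closely, and reads shared by both were not counted.

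Other islet and gut peptide genes were higher in both lines. Of 10 tested, 6 rose and 1 fell, with a median of 0.79, and the control line had 7 higher and 0 lower with a median of 0.82. The difference was called higher for 2 and lower for 4, with a median of -0.38. Sct, the secretin gene, went from 12.5, 11.7 and 12.9 CPM to 74.2, 69.0 and 66.1, against 15.3, 11.8 and 11.6 to 40.7, 43.5 and 40.8 in the control line. Its rise of 2.51 (SE 0.07) exceeded that of the control line by 0.82. Cck, the cholecystokinin gene, rose by 1.48 (SE 0.10) and by 1.12 in the control line, and the difference of 0.36 did not pass. Proglucagon, Gcg, rose by 0.81 (SE 0.08), less than in the control line (difference -0.56). Npy, the neuropeptide Y gene, fell by 0.57 (SE 0.05), with a control value of 0.10 that was not called. Among 28 genes of granins and regulated exocytosis, 14 were higher and 10 lower, against 8 and 10 in the control line, and the difference was called higher for 13 and lower for 8. Syt4, a synaptotagmin, rose by 0.88 (SE 0.04) and the SNARE gene Snap25 by 0.59 (SE 0.04), with control values of -0.01 and 0.04 that were not called. Of 29 ion channel genes, 16 were lower and 6 higher, against 10 and 3 in the control line, and the difference was called lower for 8 and higher for 7. On the TPM scale 11 ion channel genes were lower and 8 higher in the miR-23b line (median -0.02). The sodium-pump modulator Fxyd2 fell by 2.15 (SE 0.09), with a control value of -2.04, and the T-type calcium channel gene Cacna1h had -1.26 (SE 0.06), with a control value of -0.12 that did not pass.

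Stress and signal-responsive programmes moved in different directions. Of 34 genes of the interferon response and MHC class I, 25 were lower and 3 higher, with a median of -0.47. The control line had 8 lower and 5 higher with a median of -0.01, and the difference was called lower for 20 and higher for 3. Oas2, an antiviral oligoadenylate synthetase, went from 4.27, 6.25 and 6.18 CPM to 1.51, 1.48 and 1.23, while control cells with DOX held 6.71, 7.08 and 8.33. Ifih1, the RNA sensor MDA5, fell by 0.98 (SE 0.11) and the antiviral gene Rsad2 had -1.53 (SE 0.13), with control values of 0.19, not called, and -0.40, whereas the peptide transporter gene Tap1 rose by 0.36 (SE 0.06).

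Of 27 activity-induced immediate early genes, which neurons and beta cells switch on with calcium and cAMP signals, 17 were lower and 4 higher (median -0.71). The control line had 16 lower and 1 higher (median -0.43), and the difference was called lower for 9 and higher for 5. Fosb, an AP-1 subunit gene, went from 37.0, 42.4 and 46.6 CPM to 4.25, 3.57 and 4.13, and from 60.9, 69.2 and 56.8 to 7.06, 7.42 and 7.16 in control cells. Its responses of -3.41 and -3.10 differed by -0.30, which did not pass. The related Egr2 and Fos had -3.38 and -2.22, each slightly lower than in control cells (differences -0.79 and -0.37), and the call of the Egr2 difference was lost without control 7 d DOX replicate 1 and on the TPM scale, at -0.71 and -0.46. Nr4a2, a nuclear receptor gene of the same class, rose by 0.70 (SE 0.06), with a control value of 0.09 that was not called.

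Of 31 targets of ATF4, the factor that answers amino acid shortage, 25 were lower and 3 higher (median -0.42, and -0.33 in the control line). Eif4ebp1, a translation repressor, had -1.33 (SE 0.06), and Slc7a11, the cystine transporter, -0.99 (SE 0.08), with control values of -0.65 and -0.37. Over the list the control line had 23 lower and 1 higher, and the difference was called lower for 14 and higher for 6. Of 23 chaperones and unfolded protein response genes of the endoplasmic reticulum, 14 were higher and 2 lower (median 0.16, and 0.21 in the control line), such as Pdia4 at 0.49 (SE 0.04) and Hspa5 at 0.23 (SE 0.04). Their control values were 0.55 and 0.29 and neither difference passed, and over the list the difference was called lower for 6 and higher for 3. Of 35 lysosome and autophagy genes, 25 were lower and 6 higher, and their median of -0.38 stood beside -0.41 in the control line, where 26 were lower and 2 higher. The difference was called lower for 10 and higher for 10. Hexa, a lysosomal hexosaminidase, had -1.21 (SE 0.04) and Gaa, the acid glucosidase that degrades glycogen, -1.10 (SE 0.03). Gaa differed from the control response by -0.69 and Hexa, at -0.12, did not pass. Of 41 nuclear genes of oxidative phosphorylation, 24 were lower and 1 higher with a median of -0.17. The control line had 22 lower and 1 higher (median -0.11), and the difference was called for 5 lower and 1 higher. On the TPM scale 15 were lower and 6 higher in the miR-23b line. The mitochondrial protein gene Chchd10 led them with -2.004 (SE 0.11), against -1.68 in the control line.

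Cell cycle genes differed from the control response. Of 34 G1/S and DNA replication genes, 23 were lower and 5 higher (median -0.19), while in the control line 6 were lower and 17 higher (median 0.10). The difference was called lower for 21 and higher for 3. Cdk4, the kinase that starts passage into S phase with D cyclins, went from 353, 352 and 349 CPM to 230.2, 217 and 221, and stood at 305 to 317 in control cells with DOX. Ccnd3, a D cyclin, fell by 0.79 (SE 0.04) and another, Ccnd2, rose by 0.93 (SE 0.12), with differences from the control response of -0.59 and 0.49. Of 34 G2/M genes, 10 were higher and 11 lower by TMM scaling, and 17 and 7 by total counts, so no direction is given for them. In the control line 23 were higher and 1 lower, and the difference was called lower for 22 and higher for 0. Aurka, a mitotic kinase gene, fell by 0.44 (SE 0.04) with a control value of -0.02.

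Of 27 p53 targets and CDK inhibitors, 13 were higher and 9 lower, against 4 and 10 in the control line, and the difference was called higher for 13 and lower for 7. Phlda3 stood at 0.776, 0.700 and 0.572 CPM without DOX and at 8.31, 8.54 and 9.01 with it. After withdrawal it stood at 0.791, 0.682 and 0.700 CPM, and control cells with DOX held 0.902, 0.523 and 0.610. All groups other than the induced one thus overlapped. Cdkn1a, the CDK inhibitor p21, went from 109, 117 and 118 CPM to 222, 211 and 220.3 and was at 96.1, 94.8 and 96.2 after withdrawal. Its rise of 0.92 (SE 0.03) and that of the nuclease gene Aen (0.72, SE 0.06) differed from control values of 0.04 and -0.06. Other members went the other way: the kinase gene Plk3 had -1.69 (SE 0.06), the antiproliferative gene Btg2 -1.54 (SE 0.06) and Sesn2, a stress sensor of the mTORC1 pathway, -0.76 (SE 0.04). Control values were -0.56 for Plk3, -1.29 for Btg2 and -0.18 for Sesn2, so the difference for Btg2 was only -0.25. Among 22 apoptosis regulators, 8 were higher and 7 lower, against 6 and 7 in the control line, and the difference was called higher for 6 and lower for 5. They were led by the BH3-only genes Bmf (1.05, SE 0.13; control 0.16, not called) and Bid (-1.29, SE 0.14; control -0.42).

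Single receptor, adhesion and matrix genes differed between the lines, and the called differences in their lists stand beside 37.6% of all genes. Acvr1c, the activin and nodal receptor ALK7, went from 155, 147 and 140 CPM to 64.1, 59.8 and 61.3 and stood at 134, 132 and 138 after withdrawal, while in control cells it was higher by 0.22 (difference -1.48). Within the 31 TGF-β, activin and BMP genes tested, 14 were higher and 6 lower, against 12 and 5 in the control line, and the difference was called higher for 8 and lower for 6. Among them were the inhibitory SMAD gene Smad7 at 1.15 (SE 0.10) and the pseudoreceptor gene Bambi at 0.64 (SE 0.05), with control values of 0.48 and -0.19. Notch1 went from 105, 103 and 108 CPM to 55.9, 53.4 and 56.8, with 107, 105 and 111 in control cells with DOX. Of all 25 NOTCH genes, 8 rose and 3 fell (44.0%, against 57.4% of all genes), and 5 and 1 in the control line. The difference was called higher for 2 and lower for 5. The 8 became 4 without miR-23b 7 d DOX replicate 2 and in DESeq2, and 5 without miR-23b no DOX replicate 3. Of 37 neuronal adhesion and axon guidance genes, 15 were higher and 9 lower, against 13 and 7 in the control line, and the difference was called higher for 16 and lower for 11. L1cam, a neural adhesion molecule, went from 17.1, 17.5 and 18.7 CPM to 58.8, 63.2 and 64.5 and was at 15.4, 15.3 and 15.4 after withdrawal. Unc5d, a netrin receptor, rose by 2.07 (SE 0.11) and Nrp2, a semaphorin co-receptor, fell by 1.81 (SE 0.08), with control values of 1.12 and -0.99. Of 15 mesenchymal and matrix genes, 9 were higher and 3 lower, against 8 and 3 in the control line, and the difference was called higher for 6 and lower for 1. They were led by the fibrillar collagen gene Col11a2, which went from 11.4, 11.6 and 12.7 CPM to 49.5, 51.9 and 54.2 and stood at 32.0, 31.1 and 30.7 after withdrawal.

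The 12 rule-selected higher genes also held Hr, a nuclear receptor corepressor, Snhg11, a long noncoding RNA, the metalloprotease gene Adam12, Gpr179, Fam19a1, Fev, Igfbp4, an IGF-binding protein, and Kcnh1, a potassium channel, with log2 fold changes from 1.89 to 2.01. Fev, a transcription factor gene of serotonin neurons and islet progenitors, went from 2.20, 2.57 and 2.17 CPM to 7.03, 10.1 and 9.07. Kcnh1 stood at 39.9, 38.5 and 33.9 CPM with DOX and was at 8.65, 10.2 and 10.3 after withdrawal, beside 9.95, 10.1 and 10.5 without DOX. Of the 12 higher genes, 10 were called higher in the control line too, and all 12 differed from that response. The difference of Gpr179, 0.95, was no longer called without control no DOX replicate 1, at 0.52, and on the TPM scale, at 0.18. On the lower side stood Blnk, an adaptor of B cell receptor signalling, which went from 25.4, 31.0 and 27.6 CPM to 3.24, 2.88 and 2.71, the glutathione transferase gene Mgst1 (-3.25, SE 0.13), Uap1l1 (-3.00, SE 0.06), D5Ertd615e (-2.97, SE 0.20) and Prelid2 (-2.57, SE 0.11). All 12 genes of the lower side were also called in the control line, and 11 differed from it, Fosb being the exception. The withdrawn mean lay between those of the other conditions for 12 of 12 lower genes and 10 of 12 higher ones. These genes were chosen for a wide gap between those conditions, which by itself makes a mean in between likely. The share of all genes with such a mean was not computed. The same choice by itself makes a called difference from the control line likely, since both rest on the same miR-23b libraries. Over all genes the difference was called for 37.6%. Ranked by the difference between the lines, further genes appeared. Mgl2, a lectin, stood at 0.274, 0.262 and 0.185 CPM in induced cells but at 7.41, 8.27 and 7.72 in control cells with DOX, so its difference of -4.50 rests mostly on the control line. Muc2, a gel-forming mucin, went from 3.36, 2.47 and 3.26 CPM to 0.137, 0.131 and 0.247 (control value -0.70, difference -3.43). It reached the 5 CPM asked of named genes only in the control line, so its level differed between the lines as well. Ddit4l, an inhibitor of mTORC1, went from 8.21, 10.1 and 9.78 CPM to 14.6, 11.6 and 13.3 while control cells fell from 10.3, 8.65 and 11.4 to 4.66, 3.33 and 3.56. Pcdhb18, a clustered protocadherin with close relatives, and the sulfotransferase gene Chst9 differed by 2.02 and 1.89.

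**Figure D4:**
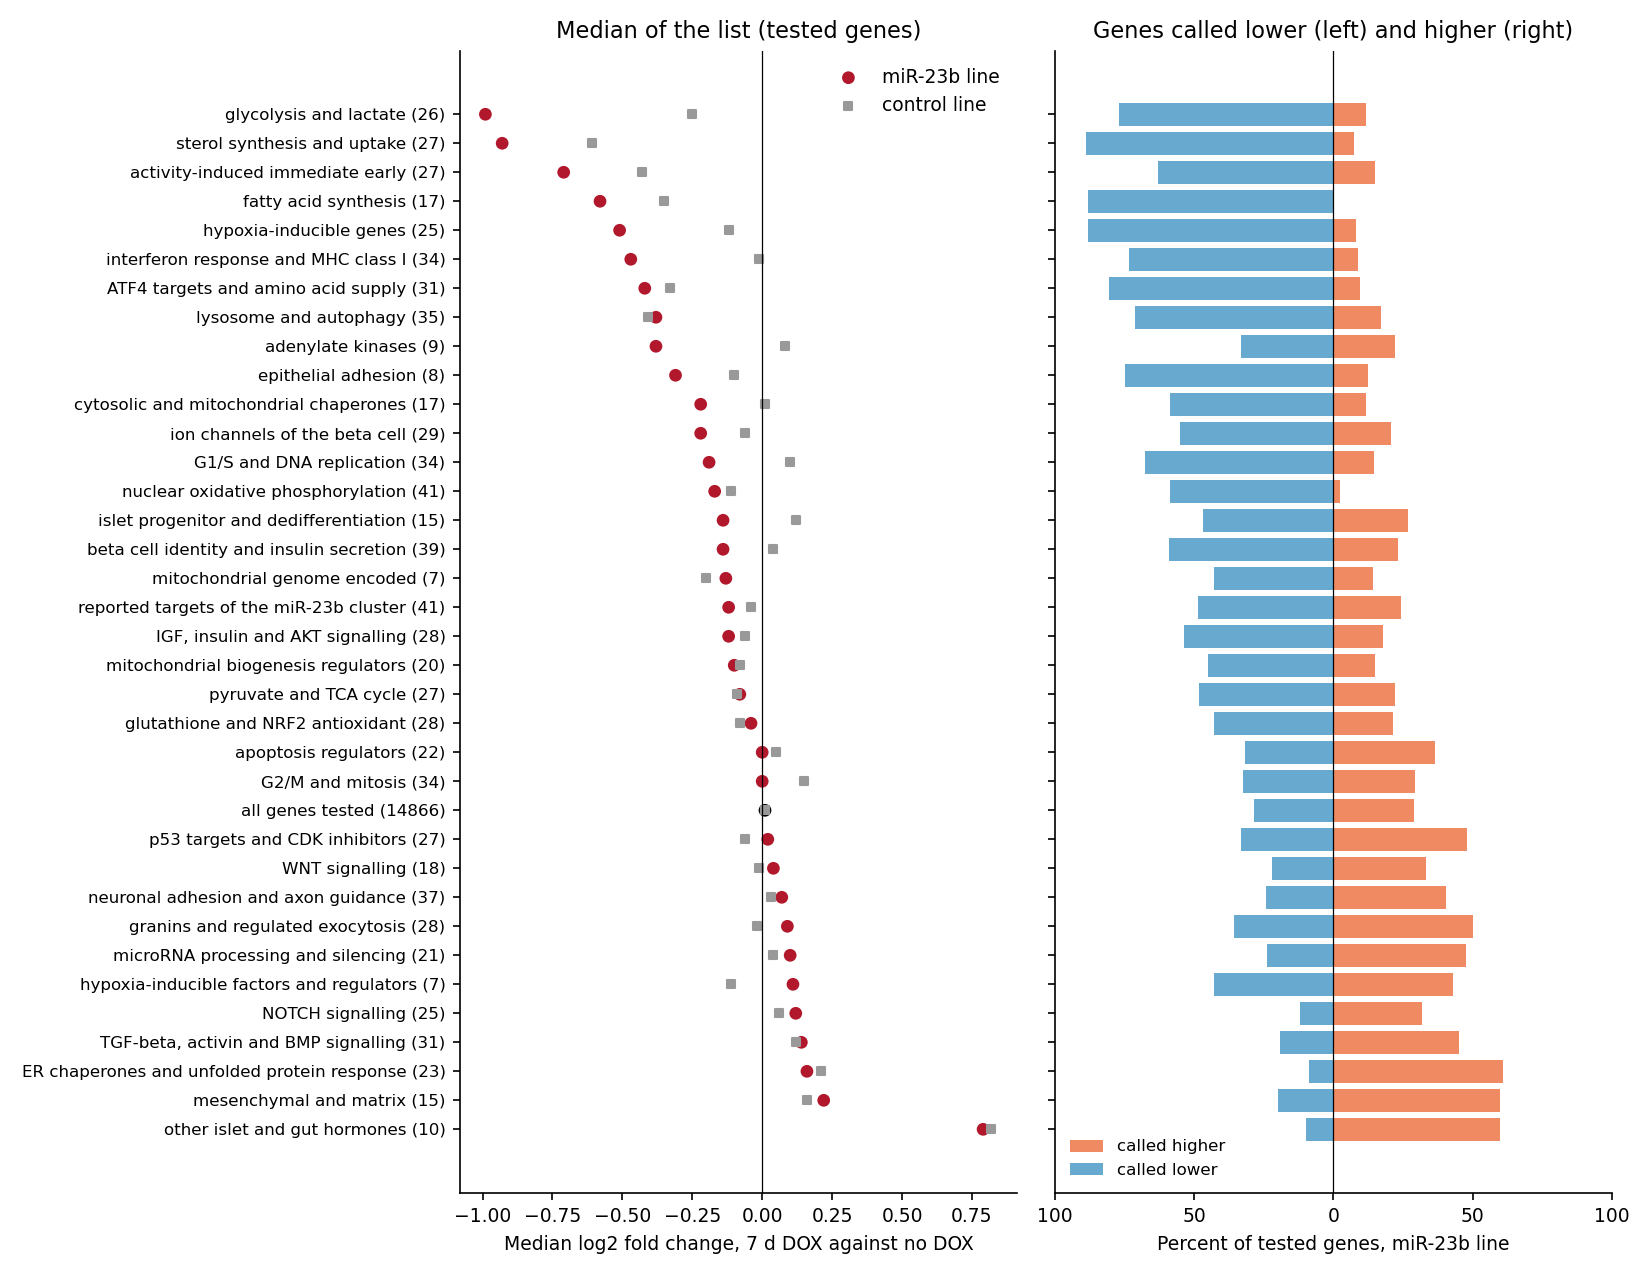
Median log2 fold change of each list of genes (left, red circles for the miR-23b line, grey squares for the control line, number of tested genes in brackets) and the percent of its genes called lower or higher in the miR-23b line (right). All genes tested stand near 0 with 28.6% lower and 28.8% higher; glycolysis and sterol synthesis lie at the low end at -0.99 and -0.93, and the peptide hormones at the high end at 0.79.

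Seed matches in 3′ UTRs were counted for miR-27b-3p and miR-24-3p in the longest GENCODE M21 UTR of each gene. Sites of 3 kinds were searched on the transcribed strand. The 7mer-m8 site pairs with the seed (ACTGTGA for miR-27b-3p, CTGAGCC for miR-24-3p). The 7mer-A1 site pairs with its first 6 bases and ends in A (CTGTGAA and TGAGCCA), and the 8mer joins both (ACTGTGAA and CTGAGCCA), and each gene was placed by its best site. Sites of miR-23b-3p were not counted, so a gene described as without a site may hold one. Sites of the genes with an 8mer that fell furthest by the rule, 5 for each microRNA, are printed from GRCm38. They run 5′ to 3′ on the transcribed strand, with the 8mer in capitals. Their genes were picked by size of fall, among 855 genes with a miR-27b-3p 8mer and 1159 with a miR-24-3p 8mer. A match of letters is a description and not evidence of binding.
Fosb, chr7:19303910-19303939, minus, miR-27b-3p: gagcgctttatACTGTGAAtgagtggtcgg
Uap1l1, chr2:25360168-25360197, minus, miR-27b-3p: gaggcaagaggACTGTGAAtcaagtatatt
Mt1, chr8:94179604-94179633, plus, miR-27b-3p: ttactaaacttACTGTGAAttgcttgaatt
Hpgds, chr6:65118742-65118771, minus, miR-27b-3p: aatataaaagaACTGTGAAaattcaatagt
Colgalt2, chr1:152510653-152510682, plus, miR-27b-3p: gaccttttctaACTGTGAAtaaagttctgg
Enpp3, chr10:24773565-24773594, minus, miR-24-3p: atttgtgtgtaCTGAGCCAcagtgctcaca
Itpr2, chr6:146111528-146111557, minus, miR-24-3p: gtgccaagatgCTGAGCCAtttagctccca
Atp7b, chr8:21993529-21993558, minus, miR-24-3p: tgagcgagtggCTGAGCCAcccggaacaga
Phex, chrX:157165337-157165366, minus, miR-24-3p: gaattcaagaaCTGAGCCAaatacttttct
Rreb1, chr13:37932639-37932668, plus, miR-24-3p: gtgcctgtggtCTGAGCCAccaaggcttat
Rreb1, chr13:37934824-37934853, plus, miR-24-3p: tttctttaccaCTGAGCCAtctctccagcc
Each of these lies in a single exon, and except in Rreb1 it is the only 8mer of that microRNA in its gene.

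The genes behind these sites did not behave alike. Mt1, a metallothionein, went from 284, 295 and 285 CPM to 63.3, 68.2 and 70.9, a log2 fold change of -2.10 (SE 0.06), against -1.002 in control cells. Hpgds, a prostaglandin D synthase, had -2.08 against -1.47 in control cells, and Colgalt2, a collagen galactosyltransferase, -1.87 against -1.18. Uap1l1 had -3.00 against -1.61 in control cells. For Fosb, Uap1l1 and the 3 genes before it, much of the fall thus also appeared without an induced cluster. Phex, an endopeptidase of phosphate metabolism, went from 5.82, 6.25 and 5.72 CPM to 2.38, 1.92 and 1.42, while control cells held 6.24, 6.58 and 7.14 without DOX and 7.46, 6.18 and 6.25 with it. Itpr2, an inositol trisphosphate receptor, went from 11.1, 9.24 and 11.04 CPM to 2.69, 2.14 and 3.08, with a log2 control value of -0.53. It stood at 3.32, 2.91 and 2.55 CPM after withdrawal, close to the induced libraries. Enpp3, a nucleotide pyrophosphatase, likewise stood at 5.80, 4.96 and 6.74 CPM after withdrawal, beside 4.84, 4.53 and 3.52 with DOX and 19.6, 19.7 and 18.8 without. Atp7b, a copper pump, and the zinc finger gene Rreb1, which also hold a miR-24-3p 8mer (Rreb1 has 2), had log2 fold changes of -1.75 and -1.54, against -1.05 and -0.54 in control cells.

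Across the 12939 tested genes with a UTR, an 8mer went with a small shift. The 855 genes with a miR-27b-3p 8mer had a median difference between the lines of -0.052, against 0.004 for the 9086 genes without a site. Their difference was called lower in 29.1%, against 19.7%. The 1159 genes with a miR-24-3p 8mer had a median difference of -0.035, against 0.005 for 9464 genes without a site, and were called lower in 24.8% against 19.7%. The 592 genes with an 8mer of miR-137-3p, a microRNA that this line does not induce, had a median difference of 0.008, against -0.005 without a site. For 7mer-m8 sites the medians over all UTR lengths were -0.004 (miR-27b-3p) and 0.007 (miR-24-3p), close to those of genes without a site. Genes with sites had longer UTRs, with a median of 2567 bases for the miR-27b-3p 8mer against 882 without a site, and UTR length moved with the difference. Genes were therefore also split into 3 equal classes of UTR length, with bounds at 724 and 1884 bases. The miR-27b-3p 8mer medians were -0.133, -0.116 and -0.021 from short to long, against -0.028, 0.002 and 0.060 without a site. The miR-24-3p 8mer medians were -0.099, -0.072 and -0.014, against -0.030, 0.008 and 0.055. In each class the 8mer genes were thus lower by 0.069 to 0.118 than genes without a site. Medians of 7mer-m8 genes from short to long were -0.074, 0.010 and 0.007 for miR-27b-3p and -0.036, -0.027 and 0.038 for miR-24-3p. They lay below the genes without a site in every class but the middle one of miR-27b-3p. For miR-137-3p the 8mer medians were -0.118, 0.021 and 0.019, against -0.031, -0.006 and 0.031 without a site, so the difference was -0.087 among short UTRs, where 56 genes held the 8mer, and 0.027 and -0.012 in the other classes.

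These shifts are far smaller than the changes of the genes named by size. Of the 12 lower genes, 11 had an annotated UTR and 5 of those held a site of either microRNA (Ak4, Fosb, Uap1l1, Insig1 and Slc16a3), a share of 45.5% beside 45.0% of all tested genes. Of the 12 higher genes, 9 held one (75.0%). Of the glycolysis and lactate list 9 of 26 did (34.6%), and of the hypoxia-inducible list 15 of 25 (60.0%). The UTRs of the 9 higher genes with a site ran from 727 bases (Phlda3) to 6051 (Unc5d). Most were longer than the median of 1209 over all genes with a UTR, and these shares were not adjusted for UTR length. Ldha held neither site. The higher genes with a site take in Snhg11, described above as a noncoding RNA, because GENCODE M21 gives it a protein-coding transcript with a UTR. Among 41 tested genes with reports as targets of the cluster's microRNAs, a list written from general knowledge, 20 were lower and 10 higher with a median of -0.12, against 11 and 5 with a median of -0.04 in the control line. On the TPM scale 14 were lower and 12 higher in the miR-23b line (median -0.03), so their lean to the lower side depends on the scaling. The difference was called lower for 16 and higher for 10. Notch1 (-0.93, SE 0.04) was among those lower, with a control value of 0.09 that was not called. The semaphorin gene Sema6a had -1.35 (SE 0.08) and a control value of -1.18, and its difference of -0.17 did not pass. The cyclin gene Ccng1 (0.40, SE 0.04; control -0.26) was among those higher. Among 21 genes of microRNA processing and silencing, 10 were higher and 5 lower, against 3 and 1 in the control line, such as the Argonaute genes Ago4 (0.57, SE 0.06) and Ago2 (0.38, SE 0.05), both above control values of 0.02 and 0.04 that were not called.

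**Figure D5:**
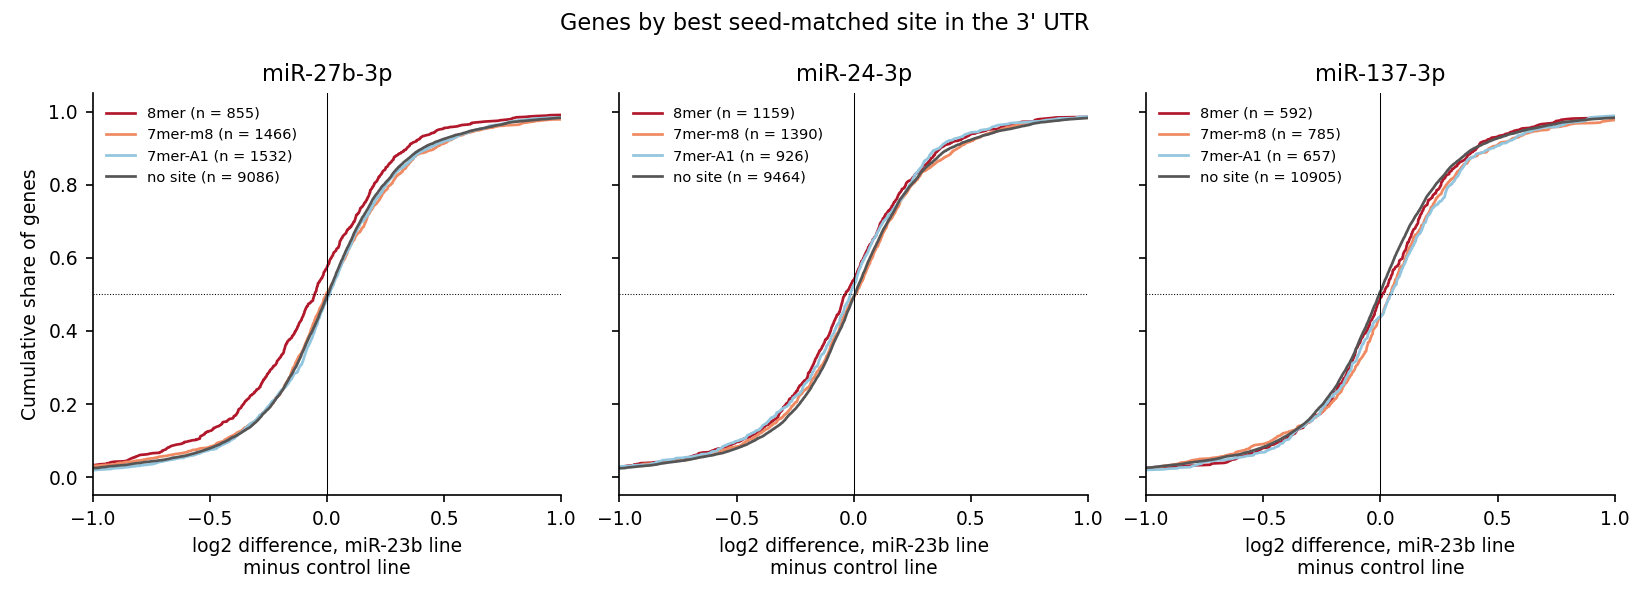
Cumulative share of genes (y axis) by the difference between the responses of the miR-23b and control lines (x axis, log2), split by the best site for miR-27b-3p, miR-24-3p and, as an uninduced comparison, miR-137-3p. The 8mer curve of miR-27b-3p lies to the left of the no-site curve, with medians of -0.052 and 0.004, and that of miR-24-3p lies slightly left, at -0.035 and 0.005.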

How the data were processed

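PolyA RNA libraries were prepared with a stranded kit, per the labels' protocols. The deposited files hold raw read counts per gene, made by the authors without normalization. They list 46517 entries, and GENCODE M21 gave a symbol to 46005 of them. Per the submitters' processing notes, the builds were GRCm38 and mm10 and the tools were featureCounts, RSEM 1.2.19, HTSeq 0.6.1, STAR 2.4.0g and cutadapt 1.3, with no statement of which tool gave which table. Reads aligned to more than 1 place (25.4% to 27.4% of reads in the 6 libraries) and outside genes (9.62% to 11.8%) stood in rows of their own and were left out. A table deposited by the authors was read as TPM, since its columns sum to between 999999.3 and 1000001.3, and was used as an alternative only, because it lists the 3 precursor loci at 0.

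Counts of all 24 libraries were fitted in R 4.3.3 with edgeR 4.0.16 (filterByExpr, TMM, 8 group means, quasi-likelihood F test, Benjamini-Hochberg adjusted p below 0.05, 14866 genes). The contrasts were 7 d DOX against no DOX in the miR-23b line, the same in the control line, and the difference of both. The SE was computed as |log2 fold change| over the root of F. It is too small for large changes with few counts in 1 group. Errors have n = 3 libraries a group. The fits were also run on simulated counts with few changed genes, no control response to DOX and equal spread for all genes. That setting is simpler than these data, so the run is no check of the calls given here. Alternatives used DESeq2 1.42.0, limma 3.58.1 on log2(TPM + 1), other scalings and filters, a replicate term, a test against a fold of 1.5, and leaving out each library in turn.

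Up to 12 genes in each direction were named by size of change (6 for the difference), given a call, 5 CPM in the higher group, no overlap of libraries and a proper symbol, and up to 3 in each direction per list. For the difference, the 5 CPM was asked of the highest of the 4 groups, which may be a control group. Libraries did not overlap in 61.4% of all genes in the miR-23b line. The members, the rule and the 41 lists were chosen with earlier results of these data known. Some genes of the lists or selected by the rule are not reported here. Annotated UTRs shorter than 30 bases were not searched for sites.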

Additional observations from a re-analysis of the deposited data

Results flagged for a closer look

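The results listed here are genes whose response to DOX in the miR-23b line differed from that of the control line when the difference was tested with edgeR's quasi-likelihood method (Benjamini-Hochberg adjusted p below 0.05, n = 3 libraries in each of 4 groups). Values are log2 differences, miR-23b line minus control line. Among genes lower in the miR-23b line the differences were -6.14 for Ak4, -3.31 for Ldha, -2.21 for Mgst1, -2.19 for Slc16a3, -1.93 for Prelid2, -1.83 for Blnk, -1.39 for Uap1l1, -1.32 for Insig1, -1.13 for D5Ertd615e and -0.79 for Egr2. Ranked by the difference itself, Mgl2 (-4.50), Muc2 (-3.43) and Slc2a2 (-2.53) were added to these. Among genes higher in the miR-23b line the differences were 3.67 for Phlda3, 1.87 for Snhg11, 1.55 for Col11a2, 1.44 for Adam12, 1.14 for Hr, 0.95 for Unc5d, 0.95 for Gpr179, 0.94 for Igfbp4, 0.85 for Fev, 0.82 for Sct, 0.81 for Kcnh1 and 0.80 for Fam19a1. Pcdhb18 (2.02), Chst9 (1.89), Ddit4l (1.88) and L1cam (1.77) were added by rank of the difference. The precursor loci Mir23b, Mir27b and Mir24-1 differed by 9.13, 6.98 and 7.03. Their control groups held 1 to 4 counts in all, so these sizes depend on the prior count of the fit.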

How the results depend on the processing

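Direction and call were kept by 3684 of 3850 recomputed values of the named genes, 161 lost the call, 3 gained it and 2 turned, Canx (0.03) and Cdh2 (0.01) on the TPM scale. A test against a fold of 1.5 called 393 genes higher and 689 lower in the miR-23b line, 114 and 226 for the difference and 104 and 185 in the control line. The TPM table called 2792 lower in the miR-23b line and 1622 for the difference, where 69.9% of calls were higher (58.4% by total counts, 48.3% by TMM). With 1 library left out, 3906 to 4064 genes were higher and 3814 to 4005 lower, 2462 to 2687 and 2541 to 2756 for the difference, and 2209 to 2428 and 2536 to 2761 in the control line.

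Deviations of same-numbered miR-23b libraries correlated at 0.062, 0.055 and 0.042, and those of differently numbered ones at -0.059 to 0.007. In the control line the values were 0.011 to 0.045 and -0.031 to 0.010. Same-numbered libraries were thus slightly more alike, and the labels do not say that the numbers mark a batch. With a replicate block, 4339 genes were higher and 4290 lower in the miR-23b line, and 2778 and 2956 for the difference.

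List medians in the miR-23b line that changed sign were, under a filter of 5 CPM, which tests fewer genes, those of the hypoxia-inducible factors (0.11 to -0.14), WNT (0.04 to -0.01) and p53 targets (0.02 to -0.01). On the TPM scale they were those of IGF and AKT (-0.12 to 0.01), pyruvate and TCA cycle (-0.08 to 0.05), mitochondrial biogenesis (-0.10 to 0.01) and glutathione (-0.04 to 0.03, and 0.02 by total counts). Also on the TPM scale, the higher G1/S genes went from 5 to 9 and the higher glycolysis genes from 3 to 5, and the lower apoptosis genes went from 7 to 4, microRNA processing genes from 5 to 3 and matrix genes from 3 to 1. A 5 CPM filter left 5 higher NOTCH genes and 5 higher apoptosis genes, of 8 each. The median of genes with any miR-27b-3p site minus that of genes without one was 0.000 for the response (-0.033 for 8mers, -0.012 for 7mer-m8 and 8mer, -0.008 to 0.001 with 1 library left out) and -0.014 for the difference (-0.056, -0.024, and -0.016 to -0.003). For miR-24-3p it was -0.019 for the difference (-0.040 for 8mers, -0.024 to -0.009 with 1 library left out). The cause of these shifts was not tested. Genes with few counts in 1 group, such as Ak4 and Mir23b, have the least certain sizes.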

Other observations

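Below the 5 CPM asked of named genes, 3 genes chosen after their values were seen stood far above their libraries without DOX. Ptprv, a receptor-type phosphatase gene, held 0.129, 0 and 0 CPM without DOX and 4.48, 3.92 and 3.08 with 7 d DOX. After withdrawal it held 0.211, 0 and 0.191 CPM, and the control libraries with DOX held 0.1002, 0.0951 and 0.152. Dscaml1, a neural adhesion molecule, went from 0.0646, 0.0466 and 0 CPM to 1.05, 1.35 and 1.73, and Inpp5d, the inositol phosphatase SHIP1, from 0, 0 and 0.0572 to 0.594, 0.697 and 0.617. The difference from the control line was called for Ptprv and Inpp5d and not for Dscaml1, and with 0 to 2 counts in the low libraries no fold is given.

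Some genes held apart after withdrawal. Ins2 was above both other conditions of the line, at 10704 to 10911 CPM, and so were Pfkfb3 at 24.9 to 29.9 and Ankrd37, an ankyrin repeat gene of the hypoxia list, at 6.88 to 10.5 against 3.96 to 5.43 without DOX. In control cells with 7 d DOX, without an induced cluster, Pfkfb3 and Ankrd37 were also higher than without DOX (1.08 and 1.31 on the log2 scale). No withdrawn control culture was analysed here, so withdrawal cannot be told apart from the longer time in culture.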
